A study of Mus musculus and Homo sapiens with 24 samples.

Results

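The RNA of K-562 cells with functional TET2 was compared between cells carrying a short hairpin RNA (shRNA) against *MBD6* (shMBD6, knockdown, KD) and cells carrying a control hairpin (shControl). K-562 is an established line from a human chronic myeloid leukaemia in blast crisis, and the labels describe it as lymphoblast cells from bone marrow. Both groups held 3 libraries of polyadenylated RNA, so the comparison used 6 of the 24 libraries of the series, chosen by the genotype and hairpin in their titles. All genes were considered. The other libraries were 12 from mouse bone marrow cells, not used here, and 6 from *TET2* knockout (KO) K-562 cells with the same hairpins, which served as the second background for the KD. Both WT groups were lines made by lentiviral transduction and kept in puromycin, and the KD rests on 1 hairpin. The study used them to ask how *MBD6* acts with and without *TET2*. Nothing in the labels says whether replicates came from separate cultures, so p-values measure the spread between these libraries.

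MBD6 is a methyl-CpG-binding-domain protein that associates with BAP1 and ASXL proteins, the deubiquitinase that removes ubiquitin from lysine 119 of histone H2A. Polycomb repressive complex 1 (PRC1) places that ubiquitin, and polycomb repressive complex 2 (PRC2) methylates histone H3 at repressed genes. K-562 cells are blocked at an early stage of the erythroid and megakaryocytic lineages, make embryonic and fetal globins, and carry the BCR-ABL1 kinase.

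The WT libraries held 27625013 to 39877202 gene counts with shControl and 33962723 to 37082783 with shMBD6. They had a count for 23118 to 24630 and for 26092 to 26476 genes, and at least 1 CPM (counts scaled to library size) for 13317 to 13337 and for 13315 to 13364 genes. Levels below are CPM normalised by the trimmed mean of M values (TMM), that is, relative to the other genes of the library. The ERCC spike-in RNAs made up 0.876% ± 0.00473 (SD, n = 3) of gene counts with shControl and 0.395% ± 0.00237 with shMBD6, without overlap (exact permutation test, two-sided p = 0.1, the smallest that 3 against 3 libraries allow). In KO libraries the share was 0.363% to 0.385% with shControl and 0.320% to 0.323% with shMBD6. They had a count for 26775 to 27613 and for 26226 to 26775 genes. Of all K-562 groups, the WT shControl libraries thus had the highest spike-in share and the fewest genes with a count. Scaled to the spike-ins, the median gene in WT cells rose by 1.13 on the log2 scale, and all directions below are relative to that shift. Whether the hairpin or a trait of the WT shControl libraries set this shift was not tested. Of 106 lower genes that the naming rule picked, 76 were higher relative to the spike-ins, 17 were not called and 13 were lower. How much spike-in was added per cell or per amount of RNA in these libraries is not given in the sources used here. In these bulk samples, fewer cells of a type and less RNA per cell cannot be told apart. Of 15 genes that identify K-562, 14 reached 1 CPM in every WT library, and the 5 genes examined in the 9p21 segment that K-562 lacks had no count.

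*MBD6* (protein-coding gene ENSG00000166987.14 at chr12:57520710-57530148 of hg38, plus strand) had 81.6, 88.4 and 77.3 CPM with shControl and 38.9, 38.2 and 36.8 CPM with shMBD6. The groups did not overlap, and *MBD6* fell by 1.12 on the log2 scale (SE 0.0544, adjusted p 3.65e-12 by edgeR). Relative to the spike-ins, *MBD6* differed by 0.02 on the log2 scale (edgeR adjusted p 0.751), so the fall is one relative to the other transcripts. Its paralogue *MBD5*, which binds the same deubiquitinase, had 14.1, 11.7 and 11.5 CPM with shControl and 13.9, 14.4 and 14.8 CPM with shMBD6 and did not pass the test (edgeR adjusted p 0.061).

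Of 17936 genes tested, 7099 (39.6%) differed between shMBD6 and shControl, 20.4% of all genes upwards and 19.2% downwards (quasi-likelihood test of edgeR, Benjamini-Hochberg adjusted p under 0.05). Most differences were small. Of the genes called, 4650 (65.5%) had an absolute log2 fold change under 0.5, and the median absolute value was 0.36. Changes of at least 2-fold were called upwards in 4.48% and downwards in 1.81% of genes. The level in the 3 libraries of one group lay wholly above or below that of the other for 49.6% of genes. These shares are the background for every count below, and a list with about 20.4% of members higher and 19.2% lower was like all genes. Protein-coding genes alone had 25.7% higher and 21.3% lower. Of the 2621 protein-coding genes in the highest of 5 groups by level, 1018 were higher and 693 lower. A list of abundant genes can therefore exceed the shares of all genes and still be like genes of its level. In the lowest group, up to 2.34 CPM, 592 were higher and 161 lower, with a median log2 fold change of 0.27. Of the 654 protein-coding genes called higher by at least 2-fold, 504 were in this lowest group. A list with many members of low level can therefore hold more rises than falls and still be like genes of its level.

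**Figure D1:**
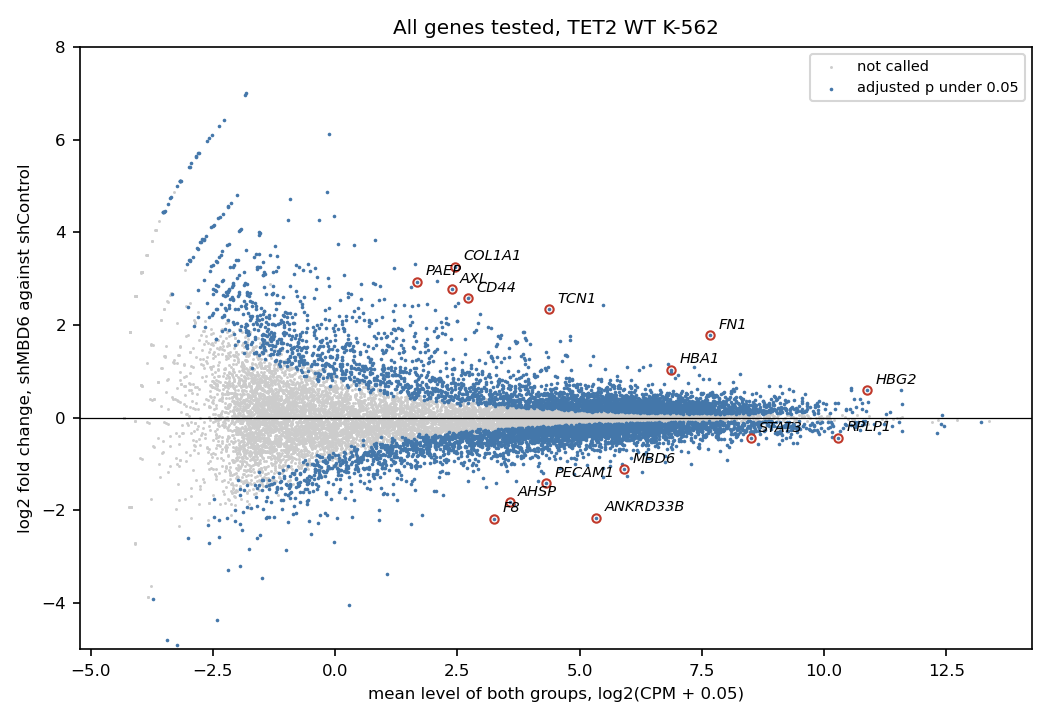
Each point is 1 of 17936 genes, with its mean level over both WT groups as log2(CPM + 0.05) on the horizontal axis and its log2 fold change, shMBD6 against shControl, on the vertical axis. Blue points are the 7099 genes with an adjusted p under 0.05. Called genes lie on both sides of 0 at all levels, with the largest rises among genes of low level and *COL1A1* and *F8* at the ends of the circled genes.

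The largest rises among protein-coding genes with at least 5 CPM included secreted, membrane and matrix genes. The 15 largest ran from 3.26 for *COL1A1*, a chain of type I collagen, to 2.08 for *TIMP3*, an inhibitor of matrix metalloproteinases. None of the 15 overlapped between groups, which their choice by size and by repeated calls made likely. *SERPING1* (protein-coding gene ENSG00000149131.15 at chr11:57597387-57619171 of hg38, plus strand), the C1 inhibitor of complement, had 0.616, 1.2 and 1.01 CPM with shControl and 7.65, 7.44 and 7.36 CPM with shMBD6 (log2 fold change 2.95 with SE 0.197, adjusted p 3.40e-10 by edgeR). *MS4A3* (protein-coding gene ENSG00000149516.13 at chr11:60056587-60071115 of hg38, plus strand), a membrane protein of granulocyte precursors, had 15.1, 14 and 12.7 CPM with shControl and 72.3, 75.2 and 77.5 CPM with shMBD6 (log2 fold change 2.42 with SE 0.0642, adjusted p 3.98e-16 by edgeR). *TCN1* (protein-coding gene ENSG00000134827.7 at chr11:59852800-59866489 of hg38, minus strand), the vitamin B12 carrier of neutrophil granules, had 6.38, 6.47 and 7.58 CPM with shControl and 35, 34.1 and 33.8 CPM with shMBD6 (log2 fold change 2.34 with SE 0.0691, adjusted p 1.75e-15 by edgeR). For each of these genes every shMBD6 library lay several times above every shControl library. *LRP1*, an endocytic receptor, had 1.92, 2.83 and 3.34 CPM with shControl and 13.9, 12.5 and 12 CPM with shMBD6 (log2 fold change 2.24 with SE 0.167, adjusted p 1.67e-09 by edgeR). *NDRG1*, a gene induced by hypoxia, had 1.52, 2.31 and 1.22 CPM with shControl and 8.93, 9.58 and 10.2 CPM with shMBD6 (log2 fold change 2.47 with SE 0.265, adjusted p 2.71e-07 by edgeR). The remaining members of the 15 were *PAEP* (2.93), *COL14A1* (2.82), *AXL* (2.78), *CD44* (2.58), *B3GAT1* (2.46), *DCT* (2.42), *OSBPL6* (2.14) and *PRSS2* (2.09), the values being log2 fold changes. *PRSS2* has near-identical trypsinogen copies, and its count is uncertain for that reason.

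Genes that fell were fewer at this size, and the 15 largest falls ran from -2.19 for *F8*, coagulation factor VIII, to -1.28 for *PLAAT3*, a phospholipase. None overlapped between groups, which the same choice made likely. *PECAM1* (protein-coding gene ENSG00000261371.5 at chr17:64319415-64413776 of hg38, minus strand), the adhesion molecule CD31 of platelets and endothelium, had 30.1, 28.9 and 28 CPM with shControl and 11.1, 11.3 and 10.3 CPM with shMBD6 (log2 fold change -1.41 with SE 0.0734, adjusted p 8.24e-12 by edgeR). *AQP10*, a water and glycerol channel, had 6.23, 5.57 and 4.7 CPM with shControl and 1.73, 1.004 and 1.13 CPM with shMBD6 (log2 fold change -2.10 with SE 0.182, adjusted p 1.40e-08 by edgeR). *KLHDC7B*, a kelch domain protein, had 63.6, 61.9 and 63.4 CPM with shControl and 24.1, 26.5 and 26.4 CPM with shMBD6 (log2 fold change -1.29 with SE 0.0619, adjusted p 3.23e-12 by edgeR). In all these genes the highest shMBD6 library was under the lowest shControl library. *PRF1*, the pore-forming protein of cytotoxic lymphocytes, had 17.5, 17.9 and 20.8 CPM with shControl and 6.04, 7.71 and 7.77 CPM with shMBD6 (log2 fold change -1.38 with SE 0.111, adjusted p 5.19e-09 by edgeR). *SOD3*, the extracellular superoxide dismutase, had 6.27, 5.34 and 6.33 CPM with shControl and 1.93, 2.42 and 1.62 CPM with shMBD6 (log2 fold change -1.58 with SE 0.198, adjusted p 2.05e-06 by edgeR). The others were *ANKRD33B* (-2.16), *PTPRR* (-1.89), *AHSP* (-1.82), *C2orf92* (-1.58), *PNMT* (-1.49), *PRSS57* (-1.41), *JAKMIP3* (-1.37) and *C11orf21* (-1.36). Relative to the spike-ins, the falls of *C11orf21*, *PRF1* and *PLAAT3* did not pass the test, with log2 fold changes of -0.22, -0.24 and -0.14 (edgeR adjusted p 0.114, 0.0515 and 0.33).

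**Figure D2:**
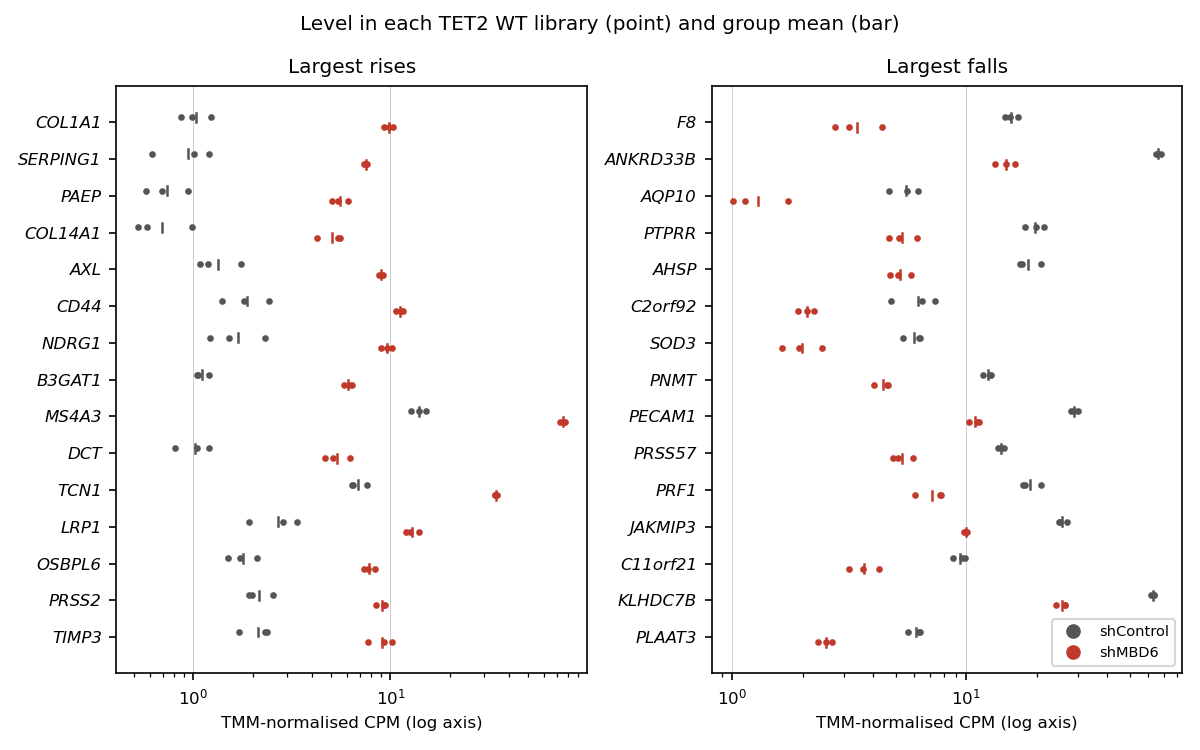
Points are the TMM-normalised CPM of single WT libraries on a log axis, grey with shControl and red with shMBD6, and bars are group means (n = 3), for the 15 largest rises (left) and falls (right). The red and grey points of each gene are apart, as for *COL1A1* at 1.03 and 9.81 CPM on average.

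Gene lists were then read by function, each by its counts of called members and the median log2 fold change of its tested members beside the median of all genes (-0.01). No list was compared with genes of the same level. Of 69 lists with a tested member, 50 had more members higher than lower, 14 had more lower and 5 had equal numbers.

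**Figure D3:**
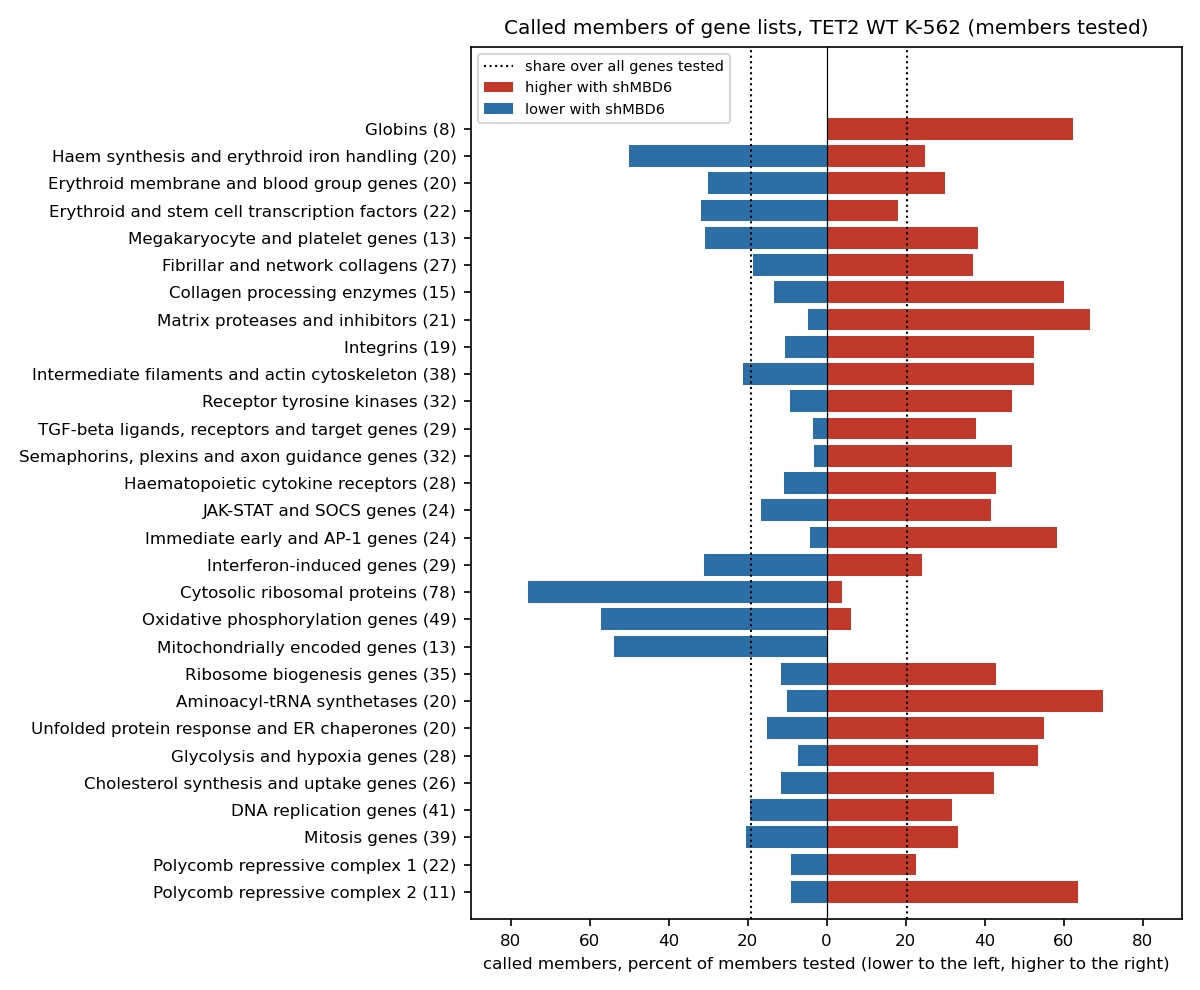
Bars give the percent of tested members called higher (red, to the right) or lower (blue, to the left) with shMBD6 in WT cells, with the number tested in parentheses. Dotted lines mark the shares over all genes, 20.4% higher and 19.2% lower. Over protein-coding genes alone the shares were 25.7% and 21.3%. Only some lists are drawn, chosen with the values known. YAP and TAZ target genes (7 of 9 higher) and T and NK markers (4 of 5 lower), for example, are left out. Among those drawn, aminoacyl-tRNA synthetases (14 of 20) and matrix proteases (14 of 21) reach furthest to the right and cytosolic ribosomal proteins (59 of 78) furthest to the left.

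Most tested globin genes rose with shMBD6. Of 8 tested globins, 5 were higher and 0 lower, with a median of 0.55. The sequences below are the 150 bases before the start of the transcript that GENCODE release 44 marks as canonical, for an embryonic and a fetal globin that rose and for *ALAS2*, which makes the first enzyme of erythroid haem synthesis and rose with them. They are shown to let genes that rose together be read against their promoter letters. All are hg38, written 5′ to 3′ on the strand of the gene, with matches in capitals to CACCC (the box bound by KLF factors), CCAAT, GATA and TATAA on either strand.
HBZ: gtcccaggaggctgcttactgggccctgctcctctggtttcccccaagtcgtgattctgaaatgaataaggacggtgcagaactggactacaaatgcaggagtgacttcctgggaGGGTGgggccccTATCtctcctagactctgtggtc
HBG2: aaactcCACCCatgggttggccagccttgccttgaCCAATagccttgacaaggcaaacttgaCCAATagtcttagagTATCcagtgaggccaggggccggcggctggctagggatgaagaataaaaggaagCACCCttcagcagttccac
ALAS2: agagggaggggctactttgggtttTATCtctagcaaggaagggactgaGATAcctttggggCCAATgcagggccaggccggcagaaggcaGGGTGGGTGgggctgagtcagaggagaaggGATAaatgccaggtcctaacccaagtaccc
*HBZ* lies at chr16:152494-152643 on the plus strand. *HBG2* lies at chr11:5254782-5254931 and *ALAS2* at chrX:55030978-55031127, both on the minus strand. The annotated genes *HBZ* and *HBG2* also hold a transcript that starts further upstream, so these 2 windows lie inside the full extent of the gene. Over the same window of 20046 protein-coding genes, 42.3% held CACCC, 26.5% CCAAT, 23.3% GATA and 11.1% TATAA. GATA was matched 3 times in *ALAS2* and once each in *HBZ* and *HBG2*, and TATAA in none of the 3. In *ALAS2* the 2 CACCC matches share 1 base. The windows of *HBG2* and *HBG1* are the same in 150 of 150 bases.

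*HBZ* (protein-coding gene ENSG00000130656.4 at chr16:142728-154503 of hg38, plus strand), the embryonic zeta-globin, had 87.5, 89.5 and 91.6 CPM with shControl and 170.1, 176 and 162 CPM with shMBD6 (log2 fold change 0.92 with SE 0.0598, adjusted p 2.43e-10 by edgeR). *HBA1* (protein-coding gene ENSG00000206172.8 at chr16:176680-177522 of hg38, plus strand), adult alpha-globin, had 76.2, 75.8 and 79 CPM with shControl and 153, 164 and 156 CPM with shMBD6 (log2 fold change 1.03 with SE 0.0531, adjusted p 7.67e-12 by edgeR). *HBG2* (protein-coding gene ENSG00000196565.14 at chr11:5253188-5505605 of hg38, minus strand), fetal gamma-globin, had 1532, 1477 and 1488 CPM with shControl and 2186, 2433 and 2135 CPM with shMBD6 (log2 fold change 0.59 with SE 0.0403, adjusted p 5.01e-10 by edgeR). In all 3 genes the groups were apart. *HBA2* had 3.73, 5.19 and 5.25 CPM with shControl and 12.9, 13.4 and 11.8 CPM with shMBD6 (log2 fold change 1.42 with SE 0.149, adjusted p 1.96e-07 by edgeR). *HBA1* with *HBA2*, and *HBG2* with *HBG1*, are near-identical copies, and reads that fit both may be missing or divided, so the single values are uncertain.

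Haem and iron genes moved in both directions, with 20 tested, 5 higher and 10 lower. *ALAS2* (protein-coding gene ENSG00000158578.20 at chrX:55009055-55030977 of hg38, minus strand) had 74, 81.5 and 79.9 CPM with shControl and 156, 154 and 159 CPM with shMBD6 (log2 fold change 0.99 with SE 0.0485, adjusted p 3.68e-12 by edgeR). *SLC25A37*, the mitochondrial iron importer mitoferrin, had 168, 172 and 167 CPM with shControl and 250.5, 248 and 247 CPM with shMBD6 (log2 fold change 0.56 with SE 0.0294, adjusted p 9.36e-12 by edgeR). *CPOX*, a later enzyme of haem synthesis, rose by 0.70 (edgeR adjusted p 6.28e-06). *AHSP* (protein-coding gene ENSG00000169877.9 at chr16:31527900-31528803 of hg38, plus strand), the chaperone of alpha-globin, went the other way, with 17, 20.9 and 17.3 CPM with shControl and 4.7, 5.1 and 5.8 CPM with shMBD6 (log2 fold change -1.82 with SE 0.148, adjusted p 5.71e-09 by edgeR). *ALAS1*, the enzyme of other tissues, had 48.2, 47.8 and 48.8 CPM with shControl and 49.3, 48 and 51.6 CPM with shMBD6, which overlap.

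Among red cell membrane and blood group genes, 6 of 20 were higher and 6 lower, or 7 and 9 with the offsets for transcript length and GC content described below. *SLC4A1*, the band 3 anion exchanger, had 13.8, 15.2 and 13.6 CPM with shControl and 23.1, 21.3 and 23.6 CPM with shMBD6 (log2 fold change 0.67 with SE 0.12, adjusted p 0.000137 by edgeR). *KEL*, the Kell antigen, had 42.5, 46.9 and 42.7 CPM with shControl and 32, 32.9 and 30.6 CPM with shMBD6 (log2 fold change -0.47 with SE 0.057, adjusted p 1.37e-06 by edgeR). *GYPB*, glycophorin B, fell by 0.47 (edgeR adjusted p 0.00149) but has close copies in the genome, so its count is uncertain.

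Of 22 tested erythroid and stem cell transcription factors, 4 were higher and 7 lower, against 7 higher and 6 lower with the offsets. *LMO2* (protein-coding gene ENSG00000135363.11 at chr11:33858576-33892076 of hg38, minus strand), the bridging subunit of the TAL1 and GATA1 complex, had 92.8, 90.9 and 92.4 CPM with shControl and 56.5, 52.7 and 56.2 CPM with shMBD6 (log2 fold change -0.74 with SE 0.0454, adjusted p 9.50e-11 by edgeR). *TAL1*, its partner, moved upwards, with 119.7, 127 and 122 CPM with shControl and 165, 157 and 158 CPM with shMBD6 (log2 fold change 0.38 with SE 0.0431, adjusted p 5.11e-07 by edgeR). *GATA2*, expressed earlier than *GATA1* in the lineage, had 220.3, 234 and 231 CPM with shControl and 268, 270.2 and 270.0 CPM with shMBD6 (log2 fold change 0.24 with SE 0.0355, adjusted p 1.70e-05 by edgeR). *GATA1* had 245, 258 and 247 CPM with shControl and 230.2, 243 and 231 CPM with shMBD6, a difference of -0.09 (edgeR adjusted p 0.0394) that was 0.03 with the offsets. *SOX6*, which represses embryonic globin genes, had 11.9, 9.81 and 10.1 CPM with shControl and 6.99, 7.76 and 7.1 CPM with shMBD6 (log2 fold change -0.54 with SE 0.106, adjusted p 0.000387 by edgeR). The erythropoietin receptor *EPOR* had 24.9, 25.1 and 24 CPM with shControl and 18.2, 17.2 and 18.7 CPM with shMBD6 (log2 fold change -0.45 with SE 0.0866, adjusted p 0.000281 by edgeR).

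**Figure D4:**
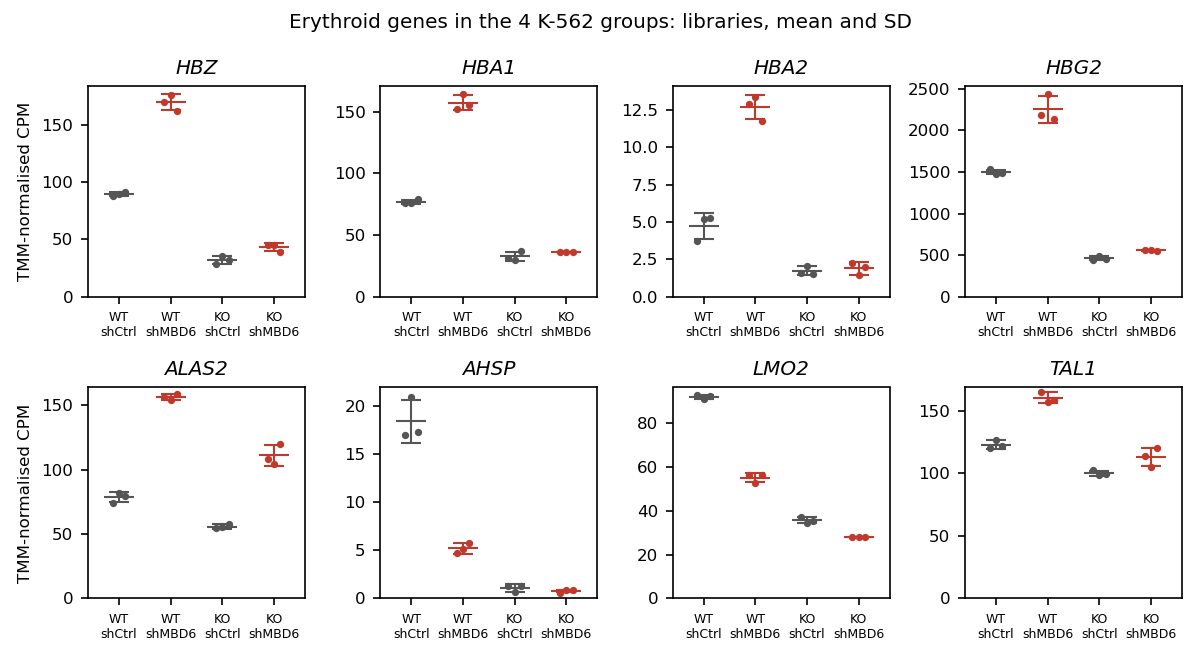
Points are TMM-normalised CPM of single libraries, with the mean and SD (n = 3) of each of the 4 K-562 groups, grey with shControl and red with shMBD6, on axes that start at 0. In WT cells *HBZ*, *HBA1*, *HBA2*, *HBG2*, *ALAS2* and *TAL1* are higher and *AHSP* and *LMO2* lower with shMBD6, and in KO cells all 8 means were lower than in WT cells with the same hairpin.

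Megakaryocyte and platelet genes were divided, with 5 of 13 tested members higher and 4 lower, or 5 and 6 with the offsets. *ITGA2B*, the platelet integrin chain CD41, had 98.6, 104 and 102 CPM with shControl and 67.1, 66.7 and 67.3 CPM with shMBD6 (log2 fold change -0.60 with SE 0.0469, adjusted p 3.30e-09 by edgeR). *CD9*, a tetraspanin of platelets, had 1.01, 0.652 and 0.974 CPM with shControl and 2.83, 3.37 and 2.29 CPM with shMBD6 (log2 fold change 1.71 with SE 0.224, adjusted p 3.68e-06 by edgeR). *SERPINE2*, a protease inhibitor, had 1.7, 2.18 and 1.25 CPM with shControl and 6.4, 6.98 and 6.38 CPM with shMBD6 (log2 fold change 1.92 with SE 0.199, adjusted p 1.63e-07 by edgeR). Of 12 coagulation genes, 4 were higher and 2 lower. *TFPI*, which inhibits tissue factor, had 41.3, 41 and 42.2 CPM with shControl and 73.4, 70.5 and 70.2 CPM with shMBD6 (log2 fold change 0.78 with SE 0.0454, adjusted p 4.37e-11 by edgeR), and *F8* had 14.6, 16.6 and 15.4 CPM with shControl and 4.37, 3.15 and 2.75 CPM with shMBD6 (log2 fold change -2.19 with SE 0.132, adjusted p 7.89e-11 by edgeR). The groups of these 5 genes did not overlap.

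Extracellular matrix genes rose more often than they fell. Of 27 tested collagens, 10 were higher and 5 lower, 7 and 1 of them by at least 2-fold, with a median of 0.80. *COL6A2*, a chain of type VI collagen, had 4.75, 6.55 and 7.44 CPM with shControl and 22.2, 21.8 and 23.6 CPM with shMBD6 (log2 fold change 1.84 with SE 0.118, adjusted p 1.94e-10 by edgeR), and *COL4A2*, a basement membrane chain, had 9.09, 7.3 and 6.89 CPM with shControl and 5.39, 5.59 and 5.6 CPM with shMBD6 (log2 fold change -0.49 with SE 0.136, adjusted p 0.00704 by edgeR). Collagen processing enzymes counted 15 tested, 9 higher and 2 lower. The lysyl hydroxylase *PLOD1* had 89.2, 87.1 and 94.2 CPM with shControl and 132, 125 and 125 CPM with shMBD6 (log2 fold change 0.49 with SE 0.0422, adjusted p 1.10e-08 by edgeR), and *PCOLCE*, which aids the cutting of procollagen, had 4.64, 5.32 and 5.74 CPM with shControl and 13.5, 12.8 and 12.4 CPM with shMBD6 (log2 fold change 1.30 with SE 0.107, adjusted p 6.89e-09 by edgeR). Every shMBD6 library was above every shControl library for *COL6A2*, *PLOD1* and *PCOLCE*, and below it for *COL4A2*.

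*FN1* (protein-coding gene ENSG00000115414.18 at chr2:215360440-215436073 of hg38, minus strand), fibronectin, had 90.1, 92.7 and 91.7 CPM with shControl and 318, 314 and 312 CPM with shMBD6 (log2 fold change 1.78 with SE 0.0362, adjusted p 4.17e-18 by edgeR). *LAMB1* (protein-coding gene ENSG00000091136.13 at chr7:107923799-108003213 of hg38, minus strand), a laminin chain, had 22.3, 21.1 and 22 CPM with shControl and 53.9, 55.9 and 55.2 CPM with shMBD6 (log2 fold change 1.34 with SE 0.0622, adjusted p 2.05e-12 by edgeR). *LAMA5*, another laminin chain, had 97.4, 96.5 and 94.4 CPM with shControl and 98.4, 108 and 94.8 CPM with shMBD6 and overlapped. Laminins and matrix glycoproteins counted 19 tested, 6 higher and 3 lower, and proteoglycans 14 tested, 6 higher and 1 lower. *HSPG2*, the basement membrane proteoglycan perlecan, had 217, 230.0 and 223 CPM with shControl and 317, 334 and 314 CPM with shMBD6 (log2 fold change 0.53 with SE 0.0432, adjusted p 6.53e-09 by edgeR), and *SDC4*, a syndecan of the cell surface, had 10.4, 8.43 and 9.36 CPM with shControl and 17.4, 15.9 and 16.5 CPM with shMBD6 (log2 fold change 0.82 with SE 0.0895, adjusted p 3.17e-07 by edgeR). Matrix proteases and their inhibitors had 14 of 21 tested members higher and 1 lower, with a median of 0.41. *MMP15*, a membrane-bound metalloproteinase, had 20.7, 19.4 and 20.1 CPM with shControl and 27.6, 29.8 and 25.3 CPM with shMBD6 (log2 fold change 0.46 with SE 0.0798, adjusted p 9.94e-05 by edgeR).

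Markers of fibroblasts and mesenchymal cells moved with these genes. Of 8 tested, 4 were higher and 0 lower, and the summed level of all 17 was 315 to 323 CPM with shControl and 594 to 595 CPM with shMBD6. The 4 were *COL1A1*, *COL5A1*, *COL6A3* and *FN1*, which are matrix genes themselves, and *FN1* made up most of the rise of the sum. *LUM* had no count in the 6 libraries, *THY1*, *PDGFRA*, *ACTA2* and *FAP* had at most 4 counts in any of them, and *TAGLN* had 3.24 to 3.66 CPM with shControl and 3.18 to 4.26 CPM with shMBD6.

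Adhesion and cytoskeletal genes followed. Of 19 integrins tested, 10 were higher and 2 lower. Other adhesion molecules counted 26 tested, 8 higher and 6 lower, or 7 and 8 with the offsets. *CD24*, a mucin-like surface protein, had 11.7, 11.7 and 11.3 CPM with shControl and 38, 37.1 and 34.4 CPM with shMBD6 (log2 fold change 1.65 with SE 0.157, adjusted p 5.07e-08 by edgeR), and *CD44*, the hyaluronan receptor, had 2.43, 1.81 and 1.39 CPM with shControl and 11.5, 10.6 and 11.3 CPM with shMBD6 (log2 fold change 2.58 with SE 0.156, adjusted p 8.11e-11 by edgeR). Intermediate filament and actin genes had 20 of 38 members higher and 8 lower. *NES*, nestin, had 14.2, 15 and 15.9 CPM with shControl and 36, 34 and 34.4 CPM with shMBD6 (log2 fold change 1.21 with SE 0.0667, adjusted p 1.87e-11 by edgeR). *DES*, desmin, had 42, 40.7 and 40.6 CPM with shControl and 17.2, 17.8 and 17.8 CPM with shMBD6 (log2 fold change -1.22 with SE 0.0634, adjusted p 8.20e-12 by edgeR), in the opposite direction to *NES* and without overlap. *VIM*, vimentin, had 774, 775 and 779 CPM with shControl and 891, 919 and 905 CPM with shMBD6 (log2 fold change 0.22 with SE 0.0242, adjusted p 3.36e-07 by edgeR).

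Receptor tyrosine kinases counted 32 tested, 15 higher and 3 lower, with a median of 0.46. *FLT4*, a receptor for vascular endothelial growth factors, had 1.2, 1.08 and 0.522 CPM with shControl and 3.21, 3.15 and 4.26 CPM with shMBD6 (log2 fold change 1.91 with SE 0.256, adjusted p 4.83e-06 by edgeR), and *TYRO3*, a relative of *AXL*, had 29.3, 36.6 and 31 CPM with shControl and 34.6, 32.8 and 36.8 CPM with shMBD6 and overlapped. Receptor-type tyrosine phosphatases had 7 of 11 members higher and 3 lower, and their largest changes went both ways. *PTPRF* had 2.9, 4.11 and 4.14 CPM with shControl and 15.3, 14.1 and 13.7 CPM with shMBD6 (log2 fold change 1.94 with SE 0.125, adjusted p 2.23e-10 by edgeR), *PTPRB* had 24, 23.7 and 23.6 CPM with shControl and 13, 12.6 and 10.7 CPM with shMBD6 (log2 fold change -0.97 with SE 0.0781, adjusted p 5.02e-09 by edgeR) and *PTPRR*, which acts on MAP kinases, had 17.8, 21.6 and 19.8 CPM with shControl and 5.18, 4.67 and 6.15 CPM with shMBD6 (log2 fold change -1.89 with SE 0.11, adjusted p 4.38e-11 by edgeR). For haematopoietic cytokine receptors, 12 of 28 were higher and 3 lower. *LIFR*, the receptor of leukaemia inhibitory factor, had 2.14, 2.31 and 2.09 CPM with shControl and 5.8, 6.08 and 4.64 CPM with shMBD6 (log2 fold change 1.33 with SE 0.146, adjusted p 3.48e-07 by edgeR), and *KIT*, the stem cell factor receptor, had 0.616, 0.452 and 0.522 CPM with shControl and 1.28, 1.63 and 1.39 CPM with shMBD6 (log2 fold change 1.46 with SE 0.201, adjusted p 6.98e-06 by edgeR). *KIT* stayed near 1 CPM in both groups.

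In the JAK-STAT list, 10 of 24 members were higher and 4 lower, and the signal transducer *STAT3* and known cytokine-induced genes went in opposite directions. *STAT3* (protein-coding gene ENSG00000168610.14 at chr17:42313324-42388540 of hg38, minus strand) had 412, 423 and 424 CPM with shControl and 301, 314 and 305 CPM with shMBD6 (log2 fold change -0.45 with SE 0.0289, adjusted p 1.81e-10 by edgeR). *CISH*, a feedback inhibitor induced by STAT5, had 100.2, 113 and 110.1 CPM with shControl and 146, 156 and 154 CPM with shMBD6 (log2 fold change 0.49 with SE 0.0447, adjusted p 2.59e-08 by edgeR). *PIM1*, a kinase gene induced by STAT5, had 629, 656 and 638 CPM with shControl and 866, 843 and 875 CPM with shMBD6 (log2 fold change 0.43 with SE 0.0286, adjusted p 3.67e-10 by edgeR). The libraries of both groups were apart for all 3 genes. *SOCS1*, another feedback inhibitor, rose by 0.60 (edgeR adjusted p 0.000111), and *JAK1* by 0.27 (edgeR adjusted p 2.15e-05).

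Immediate early and AP-1 genes had 14 of 24 tested members higher and 1 lower, with a median of 0.43. *NR4A1*, an orphan nuclear receptor, had 1.01, 1.13 and 1.08 CPM with shControl and 2.8, 2.85 and 3.19 CPM with shMBD6 (log2 fold change 1.45 with SE 0.177, adjusted p 1.57e-06 by edgeR). *FOS* had 1.2, 1.15 and 0.974 CPM with shControl and 1.52, 1.49 and 2.03 CPM with shMBD6 and did not pass (edgeR adjusted p 0.0641). MAP kinase feedback genes counted 19 tested, 7 higher and 3 lower. *PHLDA1* had 1.7, 1.68 and 2.19 CPM with shControl and 6.67, 8.03 and 6.78 CPM with shMBD6 (log2 fold change 1.95 with SE 0.162, adjusted p 7.70e-09 by edgeR), while the phosphatase gene *DUSP1* had 6.49, 6.42 and 6.82 CPM with shControl and 8.39, 5.16 and 6.55 CPM with shMBD6 and overlapped. YAP and TAZ target genes had 7 of 9 higher and 0 lower, the genes of the TGF-beta pathway 11 of 29 higher and 1 lower, and NF-kappaB genes 6 of 26 higher and 3 lower. The ligand *TGFB1* had 186, 201 and 191 CPM with shControl and 203, 205 and 220.4 CPM with shMBD6 and did not pass (edgeR adjusted p 0.0617).

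Guidance and NOTCH genes also rose more often than they fell. Semaphorins, plexins and other axon guidance genes counted 32 tested, 15 higher and 1 lower, with a median of 0.43. *SEMA4D* had 5.36, 4.82 and 4.77 CPM with shControl and 14.6, 14.6 and 14.1 CPM with shMBD6 (log2 fold change 1.54 with SE 0.092, adjusted p 6.56e-11 by edgeR), and *SEMA6B* had 0.761, 0.828 and 1.22 CPM with shControl and 4.67, 4.94 and 5.16 CPM with shMBD6 (log2 fold change 2.40 with SE 0.251, adjusted p 1.86e-07 by edgeR). NOTCH pathway genes counted 18 tested, 8 higher and 2 lower. The receptor *NOTCH1* had 46.6, 47.4 and 47.1 CPM with shControl and 73.1, 75.2 and 68.9 CPM with shMBD6 (log2 fold change 0.62 with SE 0.104, adjusted p 6.77e-05 by edgeR), the ligand *JAG2* had 16.9, 15.7 and 16 CPM with shControl and 30.1, 32.4 and 27.1 CPM with shMBD6 (log2 fold change 0.88 with SE 0.0716, adjusted p 5.61e-09 by edgeR) and the target *HEY1* had 6.74, 5.92 and 7.79 CPM with shControl and 13.2, 11.4 and 13.6 CPM with shMBD6 (log2 fold change 0.91 with SE 0.141, adjusted p 2.86e-05 by edgeR). None of these 5 genes overlapped between groups.

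Genes of the translation machinery were split by what they make. Of 78 tested cytosolic ribosomal protein genes, 59 were lower and 3 higher, with a median of -0.17. *RPLP1*, a protein of the ribosomal stalk, had 1389, 1475 and 1428 CPM with shControl and 1070.0, 968 and 1133 CPM with shMBD6 (log2 fold change -0.44 with SE 0.0431, adjusted p 8.59e-08 by edgeR). *RPS28* had 144, 166 and 148 CPM with shControl and 111, 95.7 and 118 CPM with shMBD6 (log2 fold change -0.50 with SE 0.0772, adjusted p 2.70e-05 by edgeR), whereas *RPS2* had 2511, 2512 and 2503 CPM with shControl and 2369.8, 2516 and 2362 CPM with shMBD6 and overlapped. Ribosomal protein genes have many processed pseudogenes, which makes single values uncertain. Genes of ribosome biogenesis counted 35 tested, 15 higher and 4 lower. *NCL*, nucleolin, had 839, 822 and 824 CPM with shControl and 1010.3, 954 and 965 CPM with shMBD6 (log2 fold change 0.24 with SE 0.0295, adjusted p 1.91e-06 by edgeR), and *NOLC1*, a nucleolar chaperone, had 180.5, 186 and 183 CPM with shControl and 246, 243 and 258 CPM with shMBD6 (log2 fold change 0.44 with SE 0.0317, adjusted p 9.21e-10 by edgeR). Aminoacyl-tRNA synthetases had 14 of 20 members higher and 2 lower. *AARS1* had 1089, 1128 and 1116 CPM with shControl and 1374, 1377 and 1376 CPM with shMBD6 (log2 fold change 0.31 with SE 0.0242, adjusted p 3.40e-09 by edgeR).

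Respiratory chain genes encoded in the nucleus had 28 of 49 members lower and 3 higher (median -0.13), and those encoded in mitochondria 7 of 13 lower and 0 higher (median -0.16). *COX5B*, a subunit of cytochrome c oxidase, had 299, 347 and 318 CPM with shControl and 215, 175 and 232 CPM with shMBD6 (log2 fold change -0.63 with SE 0.0865, adjusted p 5.90e-06 by edgeR). *COX7C*, another subunit, had 493, 491 and 492 CPM with shControl and 783, 711 and 773 CPM with shMBD6 (log2 fold change 0.62 with SE 0.0389, adjusted p 1.35e-10 by edgeR), in the opposite direction. *MT-CO3*, a mitochondrially encoded subunit and among the most abundant called genes per length, had 5619, 5649 and 5634 CPM with shControl and 4302, 4554 and 4526 CPM with shMBD6 (log2 fold change -0.34 with SE 0.0294, adjusted p 1.53e-08 by edgeR). Mitochondrial transcripts took 5.03% to 5.24% of gene counts with shControl and 4.53% to 4.74% with shMBD6.

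These lists hold short transcripts, and the direction of change varied with transcript length over all protein-coding genes. With the genes in 5 groups of equal size by the length of their longest transcript, the direction turned from the shortest to the longest. In the shortest group (207 to 2205 bases), 382 genes were higher and 878 lower, with a median log2 fold change of -0.10. In the longest group (6215 to 109224 bases), 966 were higher and 374 lower, with a median of 0.10. In *TET2* KO cells the medians of the same groups were 0.03 and -0.02. By GC content, 822 genes were higher and 344 lower in the lowest of 5 groups, and 545 and 695 in the highest. With offsets for length and GC content in each library, 20.1% of genes were higher and 18.9% lower, ribosomal protein genes had 33 members lower and 8 higher (median -0.08), nuclear respiratory genes 21 and 6 (median -0.08) and mitochondrially encoded genes 3 and 1 (median 0.01). Of 69 lists, 6 had their larger direction turned by the offsets, namely erythroid and stem cell factors, platelet genes, other adhesion molecules, histones, HOX genes and the *BCL2* family. The offsets were chosen after the relation was seen. Whether library preparation or the cells set the relation with length was not tested. Globins, which are short as well, rose under both (*HBA1* 1.03 without and 1.23 with the offsets).

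Proliferation genes moved little. DNA replication genes counted 41 tested, 13 higher and 8 lower with a median of 0.00, and mitosis genes 39 tested, 13 higher and 8 lower with a median of 0.05, and no member changed 2-fold. *MCM10*, which loads replication factors, had 93.6, 89.2 and 90.4 CPM with shControl and 115, 120.4 and 115 CPM with shMBD6 (log2 fold change 0.36 with SE 0.0365, adjusted p 1.11e-07 by edgeR). *RPA3*, the smallest chain of the single-strand binding complex, had 41.1, 39.8 and 36.7 CPM with shControl and 22.1, 19.9 and 25.4 CPM with shMBD6 (log2 fold change -0.80 with SE 0.0762, adjusted p 4.93e-08 by edgeR). Cyclins, inhibitors of cyclin-dependent kinases and E2F factors counted 26 tested, 7 higher and 9 lower. *CCND2*, cyclin D2, had 44.7, 43.2 and 41.2 CPM with shControl and 71.9, 67.3 and 61.9 CPM with shMBD6 (log2 fold change 0.64 with SE 0.0756, adjusted p 9.67e-07 by edgeR), and its partner *CDK4* had 243, 242 and 241 CPM with shControl and 151, 151 and 152 CPM with shMBD6 (log2 fold change -0.68 with SE 0.0342, adjusted p 5.79e-12 by edgeR), in the opposite direction. In the *MYC* family, 3 of 11 were higher and 5 lower. *MYC* had 182, 190.2 and 186 CPM with shControl and 239, 245 and 235 CPM with shMBD6 (log2 fold change 0.36 with SE 0.0337, adjusted p 3.57e-08 by edgeR), and *MXD3*, which opposes it, had 25.3, 29.1 and 25.5 CPM with shControl and 16.1, 15 and 16.6 CPM with shMBD6 (log2 fold change -0.75 with SE 0.0842, adjusted p 5.09e-07 by edgeR).

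Chaperone genes were more often higher than lower. Genes of the unfolded protein response and of the endoplasmic reticulum (ER) had 11 of 20 members higher and 3 lower. *HSPA5* (protein-coding gene ENSG00000044574.7 at chr9:125234853-125241382 of hg38, minus strand), the ER chaperone BiP, had 1199.5, 1156 and 1197 CPM with shControl and 1794, 1812 and 1778 CPM with shMBD6 (log2 fold change 0.60 with SE 0.026, adjusted p 6.93e-13 by edgeR). *HSP90B1*, its HSP90-type partner, had 1185, 1151 and 1189.8 CPM with shControl and 1817, 1839 and 1808 CPM with shMBD6 (log2 fold change 0.63 with SE 0.0261, adjusted p 3.26e-13 by edgeR). *XBP1*, a transcription factor of this response, had 305, 297 and 302 CPM with shControl and 253, 241 and 246 CPM with shMBD6 (log2 fold change -0.29 with SE 0.035, adjusted p 1.20e-06 by edgeR), below the shControl range. Cytosolic chaperones had 9 of 19 higher and 2 lower, and *HSP90AB1* had 2419.6, 2433 and 2464 CPM with shControl and 3672, 3641 and 3668 CPM with shMBD6 (log2 fold change 0.59 with SE 0.0226, adjusted p 1.17e-13 by edgeR).

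Glycolysis and hypoxia genes had 15 of 28 members higher and 2 lower. *HK2*, hexokinase 2, had 12.2, 12.3 and 12 CPM with shControl and 25.7, 22.5 and 24.8 CPM with shMBD6 (log2 fold change 1.00 with SE 0.0717, adjusted p 9.41e-10 by edgeR), and *ALDOC*, aldolase C, had 29.9, 30.9 and 28.7 CPM with shControl and 60.5, 59.9 and 63.8 CPM with shMBD6 (log2 fold change 1.04 with SE 0.0547, adjusted p 8.98e-12 by edgeR). Cholesterol genes had 11 of 26 higher and 3 lower. *MSMO1*, a sterol oxidase, had 41.1, 38.4 and 37.9 CPM with shControl and 61.8, 64.8 and 63.7 CPM with shMBD6 (log2 fold change 0.70 with SE 0.0577, adjusted p 7.10e-09 by edgeR), whereas *HMGCS1*, at the entry of the pathway, had 155, 148 and 148 CPM with shControl and 149, 149.5 and 154 CPM with shMBD6 and overlapped. Fatty acid synthesis genes counted 15 tested, 8 higher and 3 lower.

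Interferon-induced genes were mixed, with 29 tested, 7 higher and 9 lower. *GBP2*, a guanylate-binding protein, had 3.12, 3.04 and 3.1 CPM with shControl and 10.8, 11.2 and 11.3 CPM with shMBD6 (log2 fold change 1.85 with SE 0.108, adjusted p 4.74e-11 by edgeR), and *ISG20*, an exonuclease, had 2.9, 3.34 and 3.34 CPM with shControl and 1.43, 1.71 and 1.22 CPM with shMBD6 (log2 fold change -1.13 with SE 0.199, adjusted p 0.000111 by edgeR). Of 14 genes of MHC class I presentation, 5 were higher and 0 lower. *TAP1*, a peptide transporter, had 3.62, 3.09 and 2.82 CPM with shControl and 4.58, 4.64 and 5.65 CPM with shMBD6 (log2 fold change 0.65 with SE 0.136, adjusted p 0.000682 by edgeR).

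The complex of *MBD6* and the polycomb complexes themselves changed by small amounts. Of 11 tested genes of the deubiquitinase and its partners, *MBD6* included, 3 were higher and 4 lower. *FOXK1*, a partner transcription factor, had 78.2, 73.3 and 75.4 CPM with shControl and 93.8, 92.8 and 95.2 CPM with shMBD6 (log2 fold change 0.31 with SE 0.0403, adjusted p 2.88e-06 by edgeR). Members of PRC1 counted 22 tested, 5 higher and 2 lower, and *RNF2*, its catalytic subunit, had 39.5, 37.2 and 33.9 CPM with shControl and 39, 42.2 and 39.3 CPM with shMBD6 and overlapped. Members of PRC2 counted 11 tested, 7 higher and 1 lower, or 4 and 2 with the offsets. *EED*, a core subunit, had 48.3, 47.9 and 43.9 CPM with shControl and 61.8, 56.7 and 60.9 CPM with shMBD6 (log2 fold change 0.36 with SE 0.0535, adjusted p 1.93e-05 by edgeR), and *PHF19*, an accessory subunit, had 258, 263 and 256 CPM with shControl and 199, 189 and 192 CPM with shMBD6 (log2 fold change -0.42 with SE 0.0404, adjusted p 5.56e-08 by edgeR). The methyltransferase *EZH2* had 249, 246 and 244 CPM with shControl and 235, 234 and 241 CPM with shMBD6 and did not pass (edgeR adjusted p 0.196). Of 13 tested TET, DNA methyltransferase and MBD genes, 6 were higher and 3 lower. *CXXC5*, a CpG-binding protein, had 120.3, 112 and 119 CPM with shControl and 78.1, 82.9 and 79.6 CPM with shMBD6 (log2 fold change -0.55 with SE 0.0407, adjusted p 1.63e-09 by edgeR), and *DNMT3B* had 70, 66.9 and 67.9 CPM with shControl and 85.8, 86.5 and 78.6 CPM with shMBD6 (log2 fold change 0.29 with SE 0.0472, adjusted p 4.10e-05 by edgeR). Of 11 genes of RNA cytosine-5 methyltransferases and readers, 1 was higher and 1 lower, or 3 and 1 with the offsets. The reader *ALYREF* had 112, 101 and 113 CPM with shControl and 85.1, 73 and 74.2 CPM with shMBD6 (log2 fold change -0.49 with SE 0.0611, adjusted p 1.99e-06 by edgeR), and the methyltransferase *NSUN2* had 108, 106 and 108 CPM with shControl and 111, 109 and 105 CPM with shMBD6 and overlapped.

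The same hairpin was compared in *TET2* KO cells, whose shControl and shMBD6 libraries are separate from the WT ones. There 34.8% of genes were called, 18.5% higher and 16.3% lower. Of the 3653 genes higher in WT cells, 1787 (48.9%) were also higher in KO cells, 258 were lower and 1608 were not called. Of the 3446 lower in WT cells, 1388 (40.3%) were also lower in KO cells, 284 were higher and 1774 were not called. The difference between the effects, tested as an interaction, was called in 21.3% of genes, with the more positive effect in WT cells in 1980 and the more negative in 1840. Gene counts do not check the *TET2* genotype, since *TET2* was measured in both backgrounds. Relative to other genes, *MBD6* itself fell more in WT than in KO cells, with a difference of -0.28 on the log2 scale. The genotype cannot be told apart from this unequal KD or from other differences between the cell lines.

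Matrix genes differed from KO cells in both directions. Of 19 laminins and matrix glycoproteins, 9 were higher and 2 lower in KO cells, and the difference was called in 7, with the more positive effect in WT cells in 3 and the more negative in 4. *FN1* and *LAMB1* were among the 3. In KO cells the log2 fold change of *FN1* was -0.06 and that of *LAMB1* -0.16, and the difference between WT and KO effects was 1.84 and 1.49 (edgeR adjusted p 1.08e-15 and 2.66e-10). *COL1A1* rose by 2.73 in KO cells too, and its difference of 0.53 did not pass (edgeR adjusted p 0.199). Of the 15 largest rises in WT cells, 14 were called higher in KO cells as well, and the difference was called in 8. The exception was *OSBPL6*, a lipid-binding protein, at 0.08 in KO cells. Of the 15 largest falls, 12 were called lower in KO cells, and the difference was called in 13. *SOD3* was 0.53 in KO cells and *F8* -0.17. The 15 rises and falls were picked by their WT change, and the difference uses the same WT libraries. That choice favours a called difference, so these counts do not test one.

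The difference was called in 4 of 8 globins, each with the more positive effect in WT cells. *HBA1* was at 0.14 and *HBG2* at 0.27 on the log2 scale in KO cells, and the differences were 0.89 and 0.32 (edgeR adjusted p 1.11e-07 and 0.000382). *ALAS2* rose by 0.99 in KO cells, with a difference of 0.00 (SE 0.0676). *STAT3* was at -0.04 and *PIM1* at -0.02 in KO cells, and their differences were -0.41 and 0.45 (edgeR adjusted p 3.83e-07 and 1.34e-07). *HSPA5* was at 0.13 in KO cells, with a difference of 0.47 (edgeR adjusted p 1.55e-08). Ribosomal protein genes went in opposite directions, with 67 of 78 higher and 0 lower in KO cells (median 0.21) and the difference called in 71. These counts are from the fit without the length and GC offsets. With the offsets, the list had 33 members lower and 8 higher in WT cells, with a median of -0.08. The list of interferon-induced genes had 17 of 29 higher and 0 lower in KO cells, against 7 and 9 in WT cells, and the difference was called in 10. *CTCFL*, a germline relative of CTCF that many tumours express, had 209, 209.8 and 217 CPM with shControl and 408, 406 and 408 CPM with shMBD6 in WT cells and rose by 0.94 in WT and 0.83 in KO cells, with a difference of 0.11 that passed narrowly (edgeR adjusted p 0.0483).

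Markers of other blood cells were read beside these results. Granulocyte genes summed to 13.8 to 14.02 CPM with shControl and 44.4 to 45.7 CPM with shMBD6, of which *TCN1* was the largest part, and *CTSG*, *FCAR* and *MMP8* had no count. Monocyte and macrophage genes summed to 39.7 to 42.4 CPM and 56.3 to 57.9 CPM, with *C1QA* and *C1QB* at 0. Lymphoid T and NK genes summed to 11.2 to 12.99 CPM and 5.94 to 8.55 CPM, B lymphoid genes to 4.19 to 5.08 CPM and 5.60 to 8.35 CPM, and epithelial genes to 1284 to 1291 CPM and 1455 to 1484 CPM. Of 7 tested epithelial genes, 2 were higher and 2 lower, with a median of -0.16. Their largest member *KRT8* had 656, 649 and 659 CPM with shControl and 831, 850 and 834 CPM with shMBD6. *KRT19* went the other way, with 237, 245 and 240 CPM and 193, 193 and 191 CPM. Of these lists, 4 of 6 tested granulocyte genes and 4 of 7 monocyte genes were higher, and 4 of 5 tested T and NK genes were lower. In the other direction, *AZU1* of the granulocyte list fell by 1.78 (edgeR adjusted p 0.000992). *NKG7* of the T and NK list had 1, 0 and 0 counts with shControl and 7, 8 and 16 counts with shMBD6 and was called higher (edgeR adjusted p 0.00177). Several of these calls rest on few counts. *CD3E*, for example, had 14, 15 and 13 counts with shControl and 4, 8 and 6 with shMBD6. The call of *CD3D* was lost with the offsets, and those of *CD3E*, *CD3G*, *CEBPA* and *ITGAM* in some fits without 1 WT library. The part of these markers in the other results was not tested.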

How the data were processed

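Polyadenylated RNA of 12 K-562 libraries was sequenced after a stranded total RNA kit. Per the paper's methods and the labels, the authors trimmed reads with Trimmomatic 0.39, aligned them to hg38 and the ERCC sequences with HISAT2 2.2.1 and made the deposited raw counts per gene with HTSeq 0.12.4 on GENCODE release 29. The strand setting is not given in the sources used here, so overlapping and antisense genes are uncertain. The files held 58721 genes, of which 99.1% matched GENCODE release 44 for names, coordinates and length. HTSeq summary lines and 92 ERCC rows were kept apart, and reads outside genes were 10.8% to 12.1% of WT reads.

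All 12 libraries were fitted with edgeR 4.0.16 in R 4.3.3 (filterByExpr, TMM, quasi-likelihood test, Benjamini-Hochberg adjustment, threshold 0.05), which gave the WT contrast and its difference from the KO contrast. Depth of 27625013 counts or more left counting error small for genes above a few CPM. The test was also run on simulated counts in which few genes changed, each 2-fold, without a trend with length. That setting does not cover the many small changes called here. Alternatives were other scalings, filters, DESeq2 1.42.0, the 6 WT libraries alone, a replicate block, omission of each library, and length and GC offsets.

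Genes were named by rule. These were the 15 largest rises and falls among protein-coding genes with a mean of at least 5 CPM whose call held in all 6 fits without 1 WT library, and from each of 70 lists the 4 largest called members and the first 2 above 1 CPM. The genes that the study discusses and the 5 most abundant called genes per length were added. Some genes that the rule picked are not reported here. The members and lists were chosen with earlier results of these data known.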

Additional observations from a re-analysis of the deposited data

Results flagged for a closer look

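The effect of shMBD6 differed between *TET2* WT and KO cells in 3820 genes by the interaction test. Among the 15 largest rises and falls and the genes the study discusses, the difference of log2 fold changes, WT minus KO, was positive in *AXL* (2.32), *OSBPL6* (2.06), *CD44* (1.35), *TET1* (0.82), *B3GAT1* (0.82), *TIMP3* (0.67), *PRSS2* (0.65), *TET3* (0.28), *TET2* (0.27) and *MS4A3* (0.25). It was negative in *SOD3* (-2.10), *F8* (-2.01), *AHSP* (-1.34), *AQP10* (-1.15), *TCN1* (-1.14), *KLHDC7B* (-1.03), *C2orf92* (-0.96), *PLAAT3* (-0.91), *JAKMIP3* (-0.86), *ANKRD33B* (-0.70), *PRSS57* (-0.69), *PECAM1* (-0.56), *PNMT* (-0.48), *PRF1* (-0.45) and *MBD6* (-0.28). *SOD3* moved in opposite directions, -1.58 in WT and 0.53 in KO cells, and *TCN1* rose in both, by 2.34 and 3.48. For *MBD6* the negative value is the deeper relative fall in WT cells. The rises and falls were picked by their change in the same WT libraries, which favours a difference in that direction. The groups had 3 libraries each, so a library far from its group was not sought.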

How the results depend on the processing

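The counts of genes called, in total and in each direction, stayed within 1.5 times the reported ones with DESeq2 size factors, library totals, no filter, a filter at 1 CPM, DESeq2, the 6 WT libraries alone and the offsets, in which 5905 of the 7099 calls were shared, 5901 in the same direction. ERCC scaling did not, with 15475 called, 15437 higher (11224 at least 2-fold) and 38 lower (19 at least 2-fold), and for the difference from KO cells 13321 called, 13265 more positive (6847 at least 2-fold) and 56 more negative (31 at least 2-fold). Its construction adds the 1.13 shift to every gene. A filter at 1 CPM tested fewer genes and left 473 rises and 210 falls of at least 2-fold. For the difference, no filter gave 514 more positive by at least 2-fold, and an unadjusted p under 0.05 gave 5956 called, 2989 more positive (549 at least 2-fold) and 2967 more negative (451 at least 2-fold). Leaving out 1 library gave 6151 to 6458 genes called over the 6 WT libraries and 3226 to 4077 for the difference over all 12.

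Under the offsets *GATA1* was 0.034, *MT-CO1* 0.0116, *MT-CO2* 0.0041 and *MT-ND2* 0.011, with none called, against small falls without them, and the cause was not tested. Replicate numbers did not pair the libraries. The deviations of same-numbered libraries correlated at -0.05, -0.13 and -0.01 over 10216 genes, and no number correlated best with its own. With a replicate block, 6905 genes were called, 6826 of them shared, and 3654 for the difference, and *MBD6* fell by 1.12. The fall of *MBD6* was called under every alternative run except ERCC scaling, where its log2 fold change was 0.021, and lay between -1.16 and -1.06 without 1 WT library. Of 327 named genes called, 20 lost their call with the offsets, beside 4 that changed sign. When 1 WT library was left out, 23 to 29 lost their call, *HBG1*, *TET2* and *RPL41* among them. Depth limits genes near 1 CPM.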

Other observations

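Imprinted genes held some of the larger rises that the report did not describe, with 22 tested, 8 higher and 2 lower and 4 of the rises at least 2-fold. *DLK1* (protein-coding gene ENSG00000185559.14 at chr14:100725705-100738224 of hg38, plus strand), a NOTCH-like membrane protein of the *DLK1* and *MEG3* cluster, had 104, 103 and 105 CPM with shControl and 221, 227 and 213 CPM with shMBD6 (log2 fold change 1.09 with SE 0.0414, adjusted p 9.75e-14 by edgeR). *H19*, a non-coding RNA beside IGF2, had 0.217, 0.552 and 0.905 CPM with shControl and 6.25, 5.54 and 4.99 CPM with shMBD6 (log2 fold change 3.31 with SE 0.278, adjusted p 8.87e-09 by edgeR). *MEG3*, the non-coding RNA of the same cluster as *DLK1*, had 0.109, 0.201 and 0.104 CPM with shControl and 0.804, 0.434 and 0.551 CPM with shMBD6 and stayed under 1 CPM in each library. In KO cells *DLK1* changed by 0.21 on the log2 scale, and the difference of 0.88 was called (edgeR adjusted p 1.77e-09).

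Amino acid transporters counted 24 tested, 10 higher and 7 lower. *SLC7A8*, a transporter of neutral amino acids, had 39.6, 39.3 and 41 CPM with shControl and 86, 85.4 and 82.2 CPM with shMBD6 (log2 fold change 1.08 with SE 0.0577, adjusted p 1.16e-11 by edgeR). Histone genes counted 43 tested, 4 higher and 11 lower, or 9 and 8 with the offsets for length and GC content, and the linker histone *H1-4* had 13.7, 15.2 and 14.2 CPM with shControl and 6.9, 8.41 and 6.93 CPM with shMBD6 (log2 fold change -0.95 with SE 0.118, adjusted p 1.87e-06 by edgeR). Histone transcripts mostly lack a poly(A) tail, so their counts in these libraries are uncertain. Genes of the integrated stress response counted 20 tested, 8 higher and 6 lower, p53 targets 19 tested, 6 higher and 4 lower, regulators of the *BCL2* family 16 tested, 5 higher and 6 lower, WNT genes 26 tested, 4 higher and 4 lower and HOX genes 16 tested, 2 higher and 4 lower. With the offsets the last 3 lists had 5 higher and 4 lower, 4 and 7, and 3 and 2.

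Of 2973 long non-coding RNAs tested, 177 (5.95%) were higher and 483 (16.2%) lower. Both shares were under those of all genes, 20.4% and 19.2%, and most so for the rises. They were not matched for level or taken with the offsets, so they do not separate this class from the level of its members. Their median log2 fold change was -0.17 in WT and -0.12 in KO cells. Protein-coding genes had 13104 tested, 3364 higher and 2793 lower. Chromosome medians ran from -0.06 on chromosome 19 to 0.07 on the X chromosome, and the mitochondrial genome was at -0.14. Among protein-coding genes, the lowest of 5 equal groups by level, up to 2.34 CPM, had 592 higher and 161 lower, with a median of 0.27 in WT and 0.20 in KO cells. The filter kept genes that reached its count in enough of the 12 libraries, whichever group these belonged to. A gene of low level could thus be kept only through the group where it was high, which favours a called difference. The part of this choice in the skew was not tested.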
